A study of Mus musculus with 8 samples.

Results

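Elane, Prtn3, Ctsg and Mpo encode proteins of the azurophil granules of neutrophils, and their counts were followed here as 4 of the 27998 genes in a single-cell RNA table, picked by name for that shared place in the cell. Azurophil granules are the first granules that a developing granulocyte makes, and their contents are produced mainly around the promyelocyte stage and stored until the mature neutrophil meets a microbe. Elane (neutrophil elastase), Prtn3 (proteinase 3) and Ctsg (cathepsin G) encode serine proteases, and Mpo encodes myeloperoxidase, which makes hypochlorous acid from hydrogen peroxide and chloride. Since the transcripts are made early and are largely lost as a neutrophil matures, the genes serve in bone marrow as markers of granulocyte and monocyte progenitors (GMP).

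The RNA came from KL cells of the bone marrow, which carry CD117 (c-Kit) and were sorted to lack markers of mature lineages, CD11b and GR1 among them. All donors were female B6 mice aged 3 to 4 months. SPF mice stayed in a specific pathogen free facility, and CVT mice had lived for 1 month in a conventional facility, where they were co-housed. By the labels, each group had 10 mice, joined as 4 pools of 2 or 3 mice, so a pool averages over its mice and single mice cannot be told apart. SPF pools are numbered 1, 2, 7 and 8, and CVT pools 3, 4, 5 and 6. By the mouse numbers in their labels, pools 1 to 4 came from mice 1 to 10 and pools 5 to 8 from mice 11 to 20, a division that the labels do not call a batch. Transcripts were captured by the 3' droplet method of 10x Genomics, in which a unique molecular identifier (UMI) marks each captured molecule, so a level compares molecules between genes without regard to transcript length. Each cell was assigned to a pool by its name's last digit, taken to be the number in a sample's description, although no file states this link.

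The table held 29891 cells, with 41901551 to 59812346 UMIs in a CVT pool and 19041749 to 49911524 in an SPF pool. The median cell held between 7529.5 UMIs in SPF pool 1 and 12771.5 in CVT pool 4. A cell barcode occurred in more than 1 pool in 522 cases (1048 cells), and none of the 530 pairs of cells so formed had identical counts. Genes of the sorted markers were looked up in the RNA. Kit, which encodes CD117, had a UMI in 51.0% of cells (48.9% to 52.6% over the pools), Cd3e of T cells in 0.0803%, and Itgam, which encodes CD11b, in 9.39%. Late granulocyte-like cells did not match the sort, because 77.2% of these 1657 cells had a UMI of Ly6g, which encodes an antigen of GR1, 69.2% had one of Itgam and 17.7% had one of Kit. They are named so below, and every value for all KL cells includes them.

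Together the 4 genes were among the most abundant of the table. Elane (ENSMUSG00000020125.7) had 524916 UMIs and ranked 112 of all genes, and 1 cell held 710 of them. Mpo (ENSMUSG00000009350.13) followed with 498985 UMIs at rank 113. Prtn3 (ENSMUSG00000057729.12) had 484991 UMIs at rank 115, and Ctsg (ENSMUSG00000040314.2) had 398226 at rank 133. Their sum made up 0.610% ± 0.102 (SD, n = 4) of the UMIs of a CVT pool and 0.470% ± 0.0421 (SD, n = 4) of those of an SPF pool. It was 0.665%, 0.717%, 0.485% and 0.573% in CVT pools 3 to 6, against 0.423%, 0.469%, 0.465% and 0.525% in SPF pools 1, 2, 7 and 8. CVT pools 3, 4 and 6 thus lay above every SPF pool, and CVT pool 5 lay among them.

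The genes lie at 3 places in the mouse genome, and the sequence just before each start is shown because the 4 genes were highest in the same cells, as described further on. Prtn3 and Elane are neighbours on chromosome 10, Ctsg lies on chromosome 14 next to granzyme and mast cell protease genes, and Mpo lies on chromosome 11 beside Lpo. The sequences are the 250 bases before each RefSeq start on build GRCm38.p6 (chr10:79886062-79886311 on the plus strand for Elane, chr10:79879417-79879666 on the plus strand for Prtn3, chr14:56102575-56102824 on the minus strand for Ctsg and chr11:87793534-87793783 on the plus strand for Mpo), while the counts were made on a build listed as mm9. All 4 members had an entry. Capitals mark the letters AGGAAGT, which hold the core that ETS factors such as PU.1 bind.
Elane: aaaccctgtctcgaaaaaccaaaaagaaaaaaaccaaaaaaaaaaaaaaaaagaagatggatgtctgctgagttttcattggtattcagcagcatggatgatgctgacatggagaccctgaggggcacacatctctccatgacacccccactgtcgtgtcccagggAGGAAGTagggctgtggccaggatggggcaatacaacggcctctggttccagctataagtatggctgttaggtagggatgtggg
Prtn3: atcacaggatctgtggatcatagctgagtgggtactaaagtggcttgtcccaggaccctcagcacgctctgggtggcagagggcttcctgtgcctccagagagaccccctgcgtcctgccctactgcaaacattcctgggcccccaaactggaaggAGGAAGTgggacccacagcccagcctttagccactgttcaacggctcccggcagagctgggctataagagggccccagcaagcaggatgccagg
Ctsg: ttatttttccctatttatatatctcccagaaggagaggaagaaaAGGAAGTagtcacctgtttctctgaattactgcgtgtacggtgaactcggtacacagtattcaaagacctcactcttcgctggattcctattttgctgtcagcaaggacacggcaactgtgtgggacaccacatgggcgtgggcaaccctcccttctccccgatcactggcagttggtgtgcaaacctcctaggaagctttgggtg
Mpo: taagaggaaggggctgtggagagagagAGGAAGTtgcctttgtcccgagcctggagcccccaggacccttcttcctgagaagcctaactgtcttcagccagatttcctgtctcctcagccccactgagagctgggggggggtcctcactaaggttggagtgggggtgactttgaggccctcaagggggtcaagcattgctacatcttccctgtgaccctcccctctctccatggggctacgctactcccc

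AGGAAGT, sought on both strands, was present in 4 of 4 members and in 7.70% of the 32536 promoters of the same length, and its letters were chosen after the 4 sequences had been read. It began 84 bases before the start in Elane and 94 in Prtn3, and 206 in Ctsg and 223 in Mpo, so its place was shared only loosely. TAACNG, letters that MYB binds, was found in Elane and Mpo (2 of 4, and 19.9% of all promoters). TGTGGT, which RUNX factors bind, and the TATA box letters TATAAA were each found in Ctsg alone (14% and 12.3% of all promoters). The match of TATAAA in Ctsg lay on the opposite strand, 237 to 232 bases before the start. Elane and Prtn3 hold TATAAG, which this search did not count. TTNNGNAAT, a C/EBP form, was in 0 of 4 windows and in 10.2% of all promoters, which says only that these letters are not in these windows. None of these matches overlapped another in the 4 windows, and a match describes a sequence and shows no binding.

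Cells were grouped into 34 clusters without the 4 genes and without 10 other azurophil granule genes, and clusters were named from marker lists, so that the levels of the members did not shape the groups directly. A level is given as UMIs of a gene per 10000 UMIs of the cells summed in a pool, as mean and SD over the 8 pools. GMP-like cells (3089 cells, with markers such as Ms4a3, Plac8 and Hk3) had the highest level of each gene. Elane stood at 71.2 ± 2.95 (SD, n = 8) in them and Mpo at 51.3 ± 4.40 (SD, n = 8). Prtn3 stood at 44.9 ± 1.92 (SD, n = 8) and Ctsg at 42.8 ± 0.894 (SD, n = 8). Although they were only a small part of the table, these cells held 63.1% of all Elane UMIs, 50.3% of those of Ctsg, 48.9% of those of Mpo and 43.7% of those of Prtn3. Monocyte-like cells held most of the rest, with 24.7% of the UMIs of Elane and 37.2% of those of Prtn3.

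Below the GMP-like state the genes took different orders. Elane had its next level in late granulocyte-like cells (30.6 ± 10.6, SD, n = 8) and then in monocyte-like cells (18.7 ± 4.45, SD, n = 8), and the ranges of these neighbours overlapped, with 7 of 8 pools in that order. A cluster of 582 late granulocyte-like cells at 57.1 carried this level, as those of 760 and 315 cells had 1.42 and 9.85. By cells the order turned, since after thinning 66.0% of late granulocyte-like and 36.1% of monocyte-like cells had 0 Elane UMIs. The other members had monocyte-like cells second, at 27.1 ± 2.78 (SD, n = 8) for Prtn3, and those ranges met neither the GMP-like nor the late granulocyte-like ones. In MPP-like and LMPP-like cells Elane lay far below Prtn3, Mpo and Ctsg. In MPP-like cells (multipotent progenitors, 1639 cells) Prtn3 stood at 11.3 ± 1.75, Mpo at 8.81 ± 2.18 and Ctsg at 7.28 ± 2.05, but Elane at 1.40 ± 0.670 (SD, n = 8). LMPP-like cells (lymphoid-primed, 2012 cells) had 7.26 ± 1.28 of Prtn3, 5.74 ± 1.26 of Mpo, 4.04 ± 1.05 of Ctsg and 1.28 ± 0.705 of Elane (SD, n = 8). Their clusters differed, as that of 883 cells had 11.1 Prtn3, 9.24 Mpo, 7.08 Ctsg and 1.98 Elane. The larger cluster of 1129 cells had 4.48, 3.26, 1.86 and 0.793 in that order. In LTHSC-like cells (long-term stem cells, 1046 cells) the level of Prtn3 was still 5.93 ± 0.730 (SD, n = 8), while that of Mpo was 1.33 ± 0.811, that of Elane 0.902 ± 0.486 and that of Ctsg 0.811 ± 0.468. For these 3 genes the LTHSC-like, megakaryocyte-like and erythroid-like ranges overlapped, and the order within pools is given below.

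**Figure D1:**
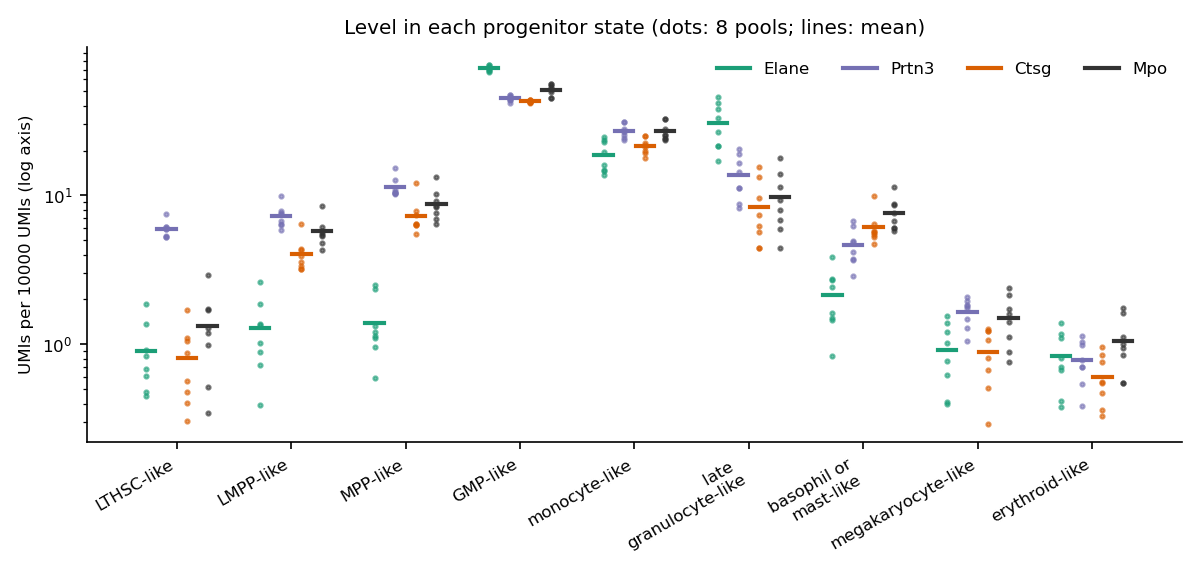
Level of each gene in 9 progenitor states, as UMIs per 10000 UMIs on a log axis; dots are the 8 pools and lines their mean. GMP-like cells are highest for all 4 genes, and Prtn3 alone stays at 5.93 in LTHSC-like cells while the others lie near the erythroid-like level.

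Erythroid-like cells (5535 cells, with markers such as Klf1, Car1 and Blvrb) are not known to use these genes, and the UMIs found in them were taken as a measure of free RNA that entered the droplets with the cells. Elane stood at 0.831 ± 0.365 per 10000 UMIs there, Prtn3 at 0.787 ± 0.256, Ctsg at 0.604 ± 0.229 and Mpo at 1.05 ± 0.442 (SD, n = 8). Relative to all KL cells of the same pool this was 5.45% ± 1.68 for Elane, 5.61% ± 1.34 for Prtn3, 5.24% ± 1.25 for Ctsg and 7.23% ± 1.74 for Mpo (SD, n = 8). Over all pools summed, Camp and Ngp, genes of late granulocytes taken as foreign to erythroid cells as well, stood in erythroid-like cells at 5.67% and 5.62% of their KL level, and on the same footing Elane stood at 6.21%, Prtn3 at 6.08%, Ctsg at 5.83% and Mpo at 8.25%. Elane, Prtn3 and Ctsg thus lay close to Camp and Ngp, with Mpo higher. Other genes of late granulocytes, picked after their values were seen, spread more widely. Retnlg stood at 0.290 per 10000 UMIs in erythroid-like and 1.95 in KL cells, a larger part than that of Mpo. Ifitm6 stood at 0.0368 and 0.844, a smaller part than that of Camp. A choice of erythroid cells without clusters (at least 10 UMIs of Klf1, Car1 and Ermap, 6369 cells) gave 6.95%, 7.57%, 6.90% and 8.84% for Elane, Prtn3, Ctsg and Mpo.

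The amount of this RNA per cell went with the depth of the cell, and the reason was not tested. Mpo stood at 0.811 UMIs per cell in the erythroid-like cluster with the lowest depth (median 6466 UMIs) and at 3.47 in that with the highest (median 30130 UMIs). Its level per 10000 UMIs lay between 1.09 and 1.36 in these clusters, apart from a cluster of 137 cells at 2.72. The ratio of Elane to Mpo was 0.786 ± 0.0930 in erythroid-like cells and 1.06 ± 0.130 in KL cells (SD, n = 8), lower in each of the 8 pools. The reason for the lower ratio was not tested. Below, other states are set against the erythroid-like level per 10000 UMIs, which takes this RNA to grow with depth in them too. Whether it did so in those states was not tested.

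Against this background, Prtn3 was the member that stood out in LTHSC-like cells. The level of Prtn3 in LTHSC-like cells was 8.26 times that of erythroid-like cells on average, at least 5.79 times in any pool. That of Elane was 1.07 times, that of Mpo 1.19 times and that of Ctsg 1.27 times the erythroid-like level, and these lay above it in 5, 6 and 7 of 8 pools. With every cell thinned to 2759 UMIs, the smallest total of a cell, 76.3% of LTHSC-like cells had a Prtn3 UMI against 20.1% of erythroid-like cells. The same shares were 18.5% and 21.1% for Elane, 17% and 16.2% for Ctsg, and 26.5% and 26.3% for Mpo, close to each other with the cells of all pools joined. Within pools the LTHSC-like share was the higher in 5 of 8 for Elane and Mpo and in 7 of 8 for Ctsg. Before thinning, LTHSC-like cells (median 5442 UMIs) had a Prtn3 UMI in 91.8% and erythroid-like cells (median 13090 UMIs) in 63.1%. The ratio of Prtn3 to Mpo was 6.52 ± 5.17 in LTHSC-like cells, from 2.55 to 17.9 over pools, and 0.779 ± 0.129 in erythroid-like cells (SD, n = 8), from 0.617 to 0.990. The ranges of the 2 states did not meet.

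MPP-like and LMPP-like cells stood above the background for 3 genes and only slightly for Elane. In MPP-like cells the mean ratio to the erythroid-like level was 15.8 for Prtn3, 13 for Ctsg and 9.42 for Mpo, and 1.73 for Elane. In LMPP-like cells it was 9.96, 7.22 and 6.11 for Prtn3, Ctsg and Mpo, and 1.54 for Elane. After thinning, 87.3% of MPP-like cells had a UMI of Prtn3, 75.1% of Mpo, 60.2% of Ctsg and 24.5% of Elane, the last beside 21.1% of erythroid-like cells and above them in 7 of 8 pools. Both states lay above erythroid-like cells for the level of Elane in 8 of 8 pools. Among LMPP-like cells, though, Elane stood at 1.98 in the cluster of 883 cells only. In the cluster of 1129 cells it had 0.793, beside 0.831 in erythroid-like cells. In megakaryocyte-like cells (2598 cells) Prtn3 stood at 1.65 ± 0.348 (SD, n = 8), on average 2.2 times the erythroid-like level and above it in 8 of 8 pools. Mpo was above it in 8 of 8 pools as well (1.46 times), Ctsg in 7 of 8 (1.45 times) and Elane in 4 of 8 (1.10 times).

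Levels also differed among the 3 GMP-like clusters, which differed in their second set of markers. The cluster of 1153 cells that also held Cpa3, Mcpt8 and Hdc of basophils and mast cells had 25.9 ± 3.32 Elane (SD, n = 8) and 37.7 ± 4.23 Mpo (SD, n = 8). The cluster of 1030 cells with the monocyte markers Irf8, Csf1r and Ccr2 had 54.6 ± 3.63 Elane and 50.05 ± 4.39 Mpo (SD, n = 8). In the cluster of 906 cells with Cebpe, Gfi1 and Gstm1 of neutrophil progenitors, Elane reached 138 ± 11.9 and Mpo 66.8 ± 5.0 (SD, n = 8). Prtn3 stood at 31.2, 44.0 and 60.4 in the same clusters and Ctsg at 29.3, 34.5 and 66.4, so every member was highest in the neutrophil progenitor cluster and Elane spanned the widest range. The ratio of Elane to Mpo differed in the same way over states, with 0.154 ± 0.0462 in MPP-like, 0.691 ± 0.132 in monocyte-like, 1.40 ± 0.170 in GMP-like and 3.32 ± 0.678 in late granulocyte-like cells (SD, n = 8). Pools of these 4 states did not overlap in that ratio.

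Single GMP-like cells differed more in Elane than in the other members, in a state that joins the 3 clusters above. Thinned GMP-like cells held a median of 14 Elane UMIs, with 1 at the 10th and 43 at the 90th percentile. For Mpo the median was 13, with 6 and 22 at these percentiles, and for Prtn3 it was 11, with 5 and 20. Only 6.47% of GMP-like cells had 0 Elane UMIs after thinning, and 0.194% had 0 Mpo UMIs. In erythroid-like cells 78.9% had 0 Elane UMIs and 73.7% had 0 Mpo UMIs.

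Monocyte-like clusters differed in how far Elane lay from the rest. A cluster of 1421 cells had 6.56 Elane but 16 Ctsg and 21.9 of both Prtn3 and Mpo. Clusters of 1569 and 710 cells had 26.2 and 26.6 Elane, level with 26.8 Ctsg in both, beside 31.9 and 35.8 Mpo. The 588 cells marked by Fn1 and S100a4 had 6.38 Elane, 6.42 Prtn3, 3.68 Ctsg and 2.92 Mpo. Basophil or mast-like cells (934 cells) had more Mpo (7.61 ± 1.89, SD, n = 8) and Ctsg (6.09 ± 1.60, SD, n = 8) than Prtn3 (4.64 ± 1.31, SD, n = 8) and Elane (2.14 ± 0.970, SD, n = 8). All 4 genes lay above the erythroid-like level in each of 8 pools in these cells, by 2.69 times for Elane and 10.9 times for Ctsg on average.

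Late granule genes served to follow the members beyond the GMP-like state. GMP-like and late granulocyte-like cells were ordered by their thinned UMIs of 12 genes of late granulocytes, such as Ltf, Camp and Ngp. Elane stood at 68.0 ± 3.11 (SD, n = 8) with 0 to 2 such UMIs and at 122 ± 25.4 (SD, n = 8) with 3 to 9. Mpo stood at 50.4 ± 4.57 and 60.3 ± 10.6 (SD, n = 8) in these bins, so both were highest with 3 to 9 late UMIs, Elane most of all. Of the 308 cells of that bin, 82.1% were GMP-like. Over all pools summed, Camp and Ngp stood at 1.01 and 0.788 in GMP-like cells, beside 1.31 and 0.974 in erythroid-like cells. How many of the late UMIs in this bin were free RNA was not tested. At 100 to 299 late UMIs (213 cells, 6 pools) Elane kept 45.5 ± 10.8 (SD, n = 6), while Prtn3 had 17.2 ± 4.95, Mpo 9.98 ± 3.96 and Ctsg 6.45 ± 3.54 (SD, n = 6). With 300 or more (1179 cells) the levels were 5.12 ± 2.53 for Elane, 2.85 ± 1.21 for Prtn3, 1.42 ± 0.638 for Mpo and 0.792 ± 0.347 for Ctsg (SD, n = 8). Mpo and Ctsg at that end lay close to their erythroid-like levels of 1.05 and 0.604, and how much of them was free RNA was not tested. The bin of 10 to 29 held 71 cells with enough cells in only 2 pools, and its values are not read here.

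**Figure D2:**
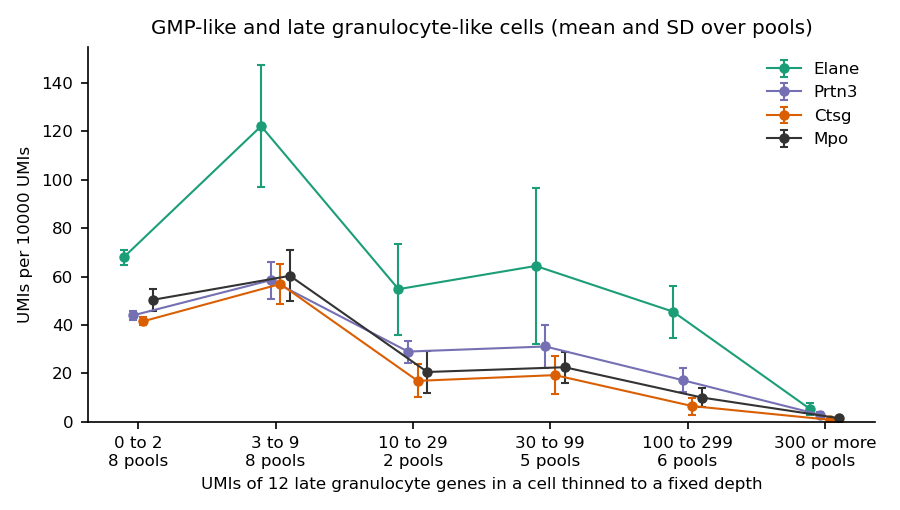
Level of each gene, in UMIs per 10000 UMIs, in GMP-like and late granulocyte-like cells binned by UMIs of 12 late granulocyte genes; points and bars are the mean and SD over the pools given under each bin. Elane peaks at 122 with 3 to 9 late UMIs and is still at 45.5 at 100 to 299, where Ctsg is at 6.45.

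Likeness to other genes was measured by Pearson's r of log2 CPM over the 34 clusters for 5491 genes, as a description of points that share their libraries and their depth. Ctsg and Mpo were closest to each other (r = 0.982), and Prtn3 was closest to Mpo (0.928) and then Ctsg (0.883). Elane was less like its fellow members (0.791 with Prtn3, 0.747 with Mpo and 0.668 with Ctsg) than like Alas1 (0.952), which encodes the first enzyme of haem synthesis, Ms4a3 (0.932) and Dmkn (0.914). Anxa3 (0.862) and Gsr (0.854), which encodes glutathione reductase, came next for Elane. The other genes closest to Prtn3 were Hk3 (0.870), a hexokinase gene, Plppr3 (0.843) and Anxa3 (0.811). Those closest to Ctsg were Prss57 (0.824), which encodes a further azurophil protease, Cst7 (0.810) and Dmkn (0.807), and those closest to Mpo were Dmkn (0.826), Sec61b (0.822) and Prss57 (0.813). Plppr3 lies close to Prtn3 on chromosome 10, with Mir6910 between them, and had 9194 UMIs. Without a cluster of 1 cell, which leaves 33 clusters and was chosen after seeing the data, Elane came to 0.896 with Ctsg and 0.887 with Mpo, so its distance from the other members rested in part on that cell. The lists of the 5 genes most alike changed too, with 4845 genes compared without that cell. Anxa3 and Gsr were no longer among those of Elane, nor Prss57 and Cst7 among those of Ctsg. Plppr3 and Anxa3 were no longer among those of Prtn3, nor Dmkn, Sec61b and Prss57 among those of Mpo. A lost place in a list does not give how far r changed.

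Genes that lie beside the members, some of them chosen after their values were seen, did not share their abundance. Cfd, the next named gene after Elane in the count table, had 64 UMIs and Lpo, beside Mpo, had 5. Gzme and Gzmd, beside Ctsg, had 1 and 3, while Mcpt8 on its other side had 13722, with 8.68 per 10000 UMIs in basophil or mast-like cells and 0.760 in GMP-like cells.

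Housing was the factor of the study, and the next comparison asks whether the members differed between CVT and SPF pools. In all KL cells the 4 genes were higher on average in CVT pools, but with overlap. Elane stood at 18.3, 19.5, 13.6 and 17.1 per 10000 UMIs in CVT pools 3 to 6 and at 11.3, 11.4, 12.9 and 14.7 in SPF pools 1, 2, 7 and 8. For Prtn3 the values were 16.4, 17.3, 12.8 and 15 in the CVT pools and 11, 12.5, 12 and 13.6 in the SPF pools, in the same order. For both genes CVT pools 3, 4 and 6 lay above every SPF pool and CVT pool 5 did not. Ctsg stood at 13.8, 15, 10.2 and 12 in CVT pools and at 8.43, 9.87, 9.83 and 11 in SPF pools. Mpo stood at 18.1, 19.9, 11.8 and 13.2 in CVT pools and at 11.5, 13, 11.8 and 13.2 in SPF pools. Ctsg repeated the pattern of the first pair, while for Mpo CVT pools 3 and 4 stood apart from the rest and CVT pools 5 and 6 lay among the SPF pools.

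The group means gave 17.1 ± 2.54 against 12.6 ± 1.57 for Elane, a fold of 1.36 (SD, n = 4; exact permutation test, two-sided p = 0.0571). Folds were 1.25 for Prtn3 (exact p = 0.0571), 1.30 for Ctsg (exact p = 0.0571) and 1.27 for Mpo (exact p = 0.143), and with 4 pools against 4 the smallest p of this test over 70 regroupings is 0.0286. In edgeR's quasi-likelihood test of 13092 genes, 0 members and 0 genes at all passed an adjusted p of 0.05, which is 0% of the genes tested. Without adjustment, 392 genes had a higher and 529 a lower level in CVT pools at p below 0.05 by edgeR, and DESeq2 called 15 genes. The log2 fold change was 0.49 for Elane (standard error 0.126, adjusted p = 0.636 by edgeR and Benjamini-Hochberg), with unadjusted p = 0.00298. It was 0.38 for Prtn3 (adjusted p = 0.636), 0.43 for Ctsg (adjusted p = 0.660) and 0.40 for Mpo (adjusted p = 0.680), all by edgeR.

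The size of the difference went with the mouse numbers. Within mice 1 to 10 the fold was 1.66 for Elane, 1.43 for Prtn3, 1.57 for Ctsg and 1.55 for Mpo, with 2 pools a group. Within mice 11 to 20 it was 1.11, 1.09, 1.06 and 1.0 in the same order. In mice 1 to 10 alone, chosen after seeing the data, edgeR called 146 of 13279 genes and all 4 members, at log2 fold changes of 0.81, 0.60, 0.73 and 0.71. In mice 11 to 20 alone it called 0 of 13245 genes, with the members at 0.20, 0.17, 0.13 and 0.04. The interaction of housing with mouse numbers was -0.63 for Elane, -0.45 for Prtn3, -0.62 for Ctsg and -0.69 for Mpo on the log2 scale, and none passed (adjusted p = 0.534 for each by edgeR).

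**Figure D3:**
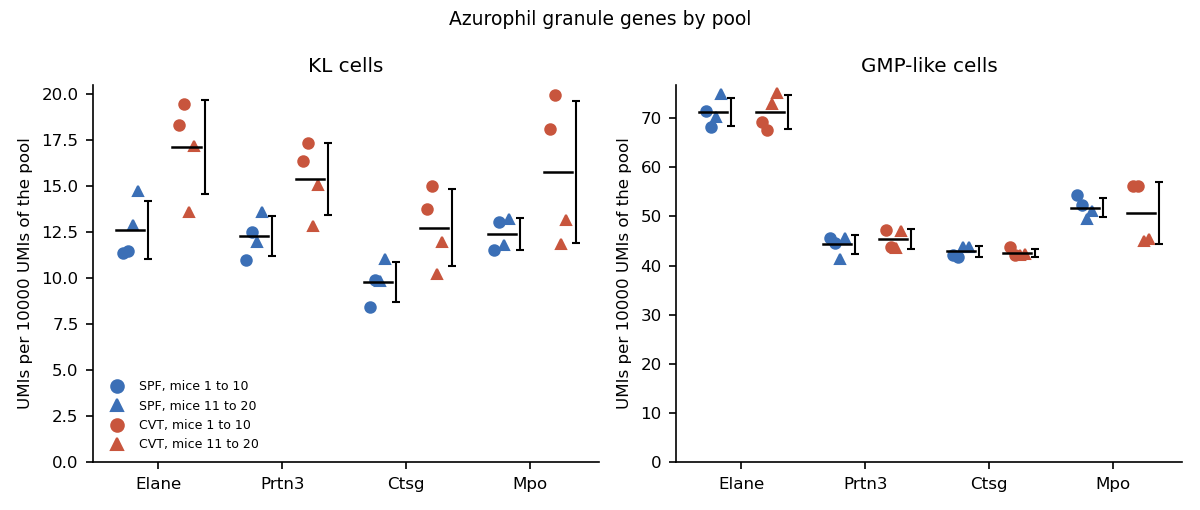
Level of each gene in each pool, in UMIs per 10000 UMIs, in all KL cells and in GMP-like cells; lines and bars are the mean and SD of 4 pools, circles are pools of mice 1 to 10 and triangles those of mice 11 to 20. In KL cells CVT pools reach 19.5 for Elane against 14.7 in SPF pools, and in GMP-like cells both groups average 71.2.

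Within GMP-like cells the difference between the groups was nearly gone. Elane stood at 69.1, 67.5, 72.9 and 75.1 in CVT pools 3 to 6 and at 71.5, 68.1, 70.3 and 75.0 in SPF pools 1, 2, 7 and 8. Mpo stood at 56.2, 56.2, 45.0 and 45.4 in CVT pools and at 54.3, 52.2, 49.5 and 51.2 in SPF pools. Prtn3 and Ctsg ranged from 41.4 to 47.3 and from 41.8 to 43.8 over all 8 pools. The groups overlapped for every member, and CVT pools of mice 1 to 10 had the highest Mpo and those of mice 11 to 20 the lowest. Of the members, 0 of 4 were called by edgeR, as were 0 of 9983 genes (0%), with 350 higher and 240 lower at p below 0.05 without adjustment and 0 called by DESeq2. Log2 fold changes were 0.05 for Elane, 0.09 for Prtn3, 0.04 for Ctsg and 0.02 for Mpo (standard errors from 0.0470 to 0.0679, adjusted p from 0.889 to 0.999 by edgeR). The sign depended on the scaling, because as UMIs per 10000 UMIs the CVT mean was below the SPF mean for Elane (71.16 against 71.22), Ctsg (42.6 against 42.9) and Mpo (50.7 against 51.8).

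The share of cells that carry the genes was compared next, since a KL level joins the level within a state and the size of the state. GMP-like cells made up 13.5%, 15.3%, 9.01% and 11.2% of the cells of CVT pools 3 to 6 and 7.68%, 7.44%, 6.44% and 8.20% of SPF pools 1, 2, 7 and 8. The lowest CVT pool was above the highest SPF pool (12.2% ± 2.71 against 7.44% ± 0.738, SD, n = 4; exact p = 0.0286, adjusted p = 0.0929 over 13 states). Monocyte-like cells were higher in CVT pools as well, at 15.3% ± 2.04 against 12.9% ± 0.826 (SD, n = 4; exact p = 0.0286), and LTHSC-like cells lower, at 2.57% ± 1.32 against 4.57% ± 1.29 (SD, n = 4; exact p = 0.0286), each with the same adjusted p. Unnamed cells lay apart too, at 21.0% ± 1.06 against 24.8% ± 1.92 (SD, n = 4; exact p = 0.0286), so 4 of 13 groups of cells did, and none passed an adjusted p of 0.05. Late granulocyte-like cells, which hold few UMIs of the members once mature, ranged from 2.44% of CVT pool 4 to 12.5% of SPF pool 7.

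To separate these terms, the level of each pool was recomputed with every cluster at its mean share over the pools. A share was here the part of a pool's UMIs, not of its cells, so it also holds the depth of the cells. At equal shares Elane stood at 15.5, 16.1, 14.1 and 15.6 in CVT pools 3 to 6 and at 14.4, 14.1, 14.1 and 15.9 in SPF pools 1, 2, 7 and 8, a difference of 0.717 (exact p = 0.343). The observed difference was 4.52, and shares alone, with each cluster at its mean level, gave 4.02 without overlap of the groups (exact p = 0.0286). For Prtn3 the difference was 0.836 at equal shares (exact p = 0.143) and 2.37 from shares alone (exact p = 0.0286). Ctsg had 0.509 (exact p = 0.314) and 2.55 (exact p = 0.0286), and Mpo had 0.420 (exact p = 0.629) and 2.97 (exact p = 0.0286). With clusters at resolution 1 the groups overlapped in the term from shares alone for Prtn3, Ctsg and Mpo (exact p = 0.0571 for each), as they did for Prtn3 with granule genes allowed in the clustering (exact p = 0.0571). In this arithmetic the shares of the clusters held most of the difference for all 4 members, and both terms come from the same cells. At equal shares Mpo differed by 2.08 within mice 1 to 10 and by -1.24 within mice 11 to 20. Ctsg differed by 1.54 and -0.521 and Elane by 1.55 and -0.113 in the same sets, so these small means join opposite values, while Prtn3 differed by 1.42 and 0.250. Without CVT pool 4 the difference of Mpo at equal shares was -0.300, and without CVT pool 3 it was -0.0660. With each pool left out, that of Elane ranged from 0.460 to 1.13, that of Ctsg from 0.194 to 0.813 and that of Prtn3 from 0.614 to 1.17.

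**Figure D4:**
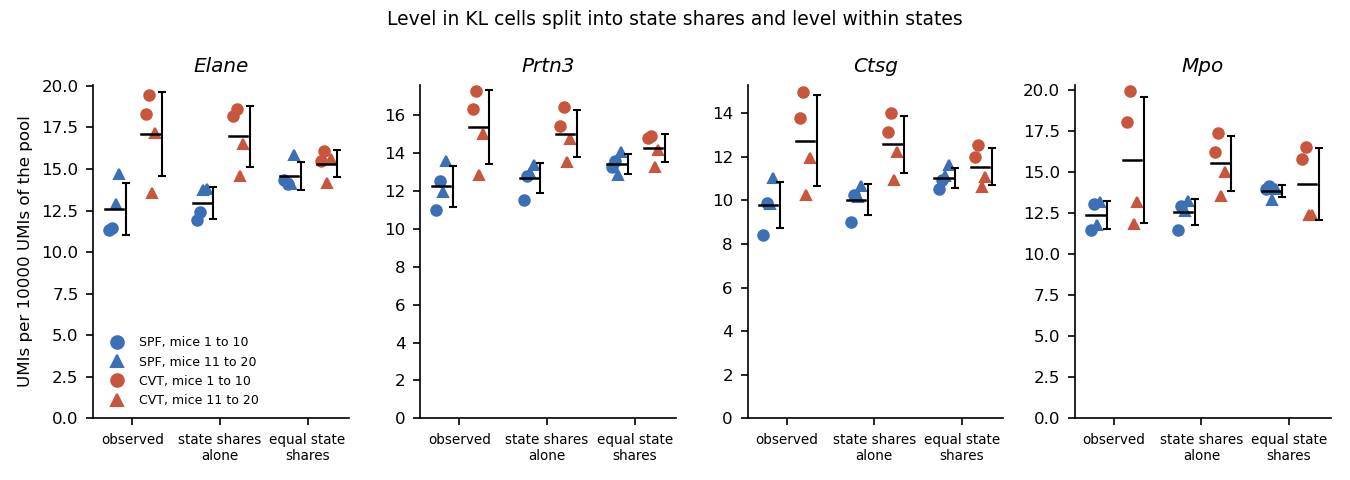
Level of each gene in all KL cells of a pool, in UMIs per 10000 UMIs, as observed, with cluster levels fixed (state shares alone) and with cluster shares fixed (equal state shares); lines and bars are the mean and SD of 4 pools. For Elane the groups differ by 4.52 as observed, by 4.02 from shares alone and by 0.717 at equal shares. Shares are parts of the UMIs of a pool.

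Free RNA could differ between the groups as well, and was compared by the same tests. In erythroid-like cells Elane stood at 1.01 ± 0.335 in CVT pools and 0.648 ± 0.330 in SPF pools (SD, n = 4), and Mpo at 1.29 ± 0.457 and 0.807 ± 0.300 (SD, n = 4). As a percent of the KL level of the same pool, Elane was at 7.66, 6.07, 4.96 and 4.70 in CVT pools 3 to 6 and at 3.69, 6.11, 2.94 and 7.44 in SPF pools 1, 2, 7 and 8. SPF pools 1 and 7, those with the fewest cells, were the lowest, and the groups overlapped (exact p = 0.543). For Prtn3, Ctsg and Mpo the exact p of this percent was 0.800, 0.600 and 0.257. The log2 fold change in erythroid-like cells was 0.62 for Elane, 0.35 for Prtn3, 0.49 for Ctsg and 0.67 for Mpo, and 0 of 4 members and 0 of 10564 genes (0%) were called by edgeR, with 229 higher and 355 lower at p below 0.05 without adjustment and 1 called by DESeq2. These log2 values are about as large as those in KL cells, and a single left-out pool moved them to between 0.15 and 1.02 over the members. Their size limits what can be read in any state where a member is near the background. In mice 1 to 10 only, chosen after seeing the data, edgeR called all 4 members among 143 of 10869 genes in erythroid-like cells. The levels there had folds of 2.31 for Elane, 1.81 for Prtn3, 2.07 for Ctsg and 2.17 for Mpo. In mice 11 to 20 only, edgeR called 0 of 10578 genes. Folds in that set were 1.004, 0.895, 0.920 and 1.08 in the same order, and the log2 fold change was negative for Elane, Prtn3 and Ctsg.

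**Figure D5:**
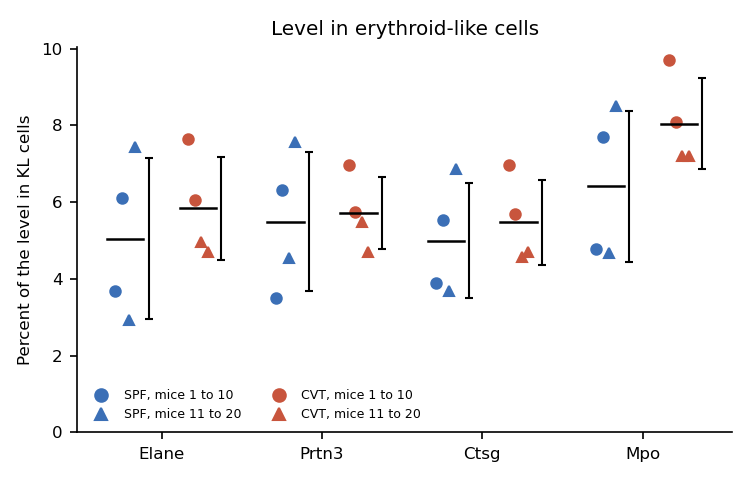
Level of each gene in erythroid-like cells as a percent of its level in all KL cells of the same pool; lines and bars are the mean and SD of 4 pools, circles are pools of mice 1 to 10 and triangles those of mice 11 to 20. Elane ranges from 2.94 to 7.66 over the 8 pools, and the groups overlap for each gene.

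In 4 further states tested by edgeR over all pools, each member had a positive log2 fold change, and none was called. In monocyte-like cells the log2 fold change was 0.50 for Elane, 0.22 for Prtn3, 0.24 for Ctsg and 0.19 for Mpo, with 0 of 4 members and 0 of 10643 genes (0%) called by edgeR (345 higher and 273 lower at p below 0.05 without adjustment, and 0 by DESeq2). In MPP-like cells it was 0.71, 0.30, 0.41 and 0.19 in that order, with 0 of 4 members and 0 of 8537 genes (0%) called by edgeR (328 higher and 244 lower unadjusted, 0 by DESeq2). LMPP-like cells had 0.98, 0.33, 0.34 and 0.21, with 0 of 4 members and 0 of 9385 genes (0%) called by edgeR (236 higher and 180 lower unadjusted, 0 by DESeq2). For LTHSC-like cells the values were 0.61, 0.16, 0.44 and 0.49, with 0 of 4 members and 0 of 6832 genes (0%) called by edgeR (239 higher and 137 lower unadjusted, 0 by DESeq2). Elane, the member closest to free RNA in the last 3 states, had the largest log2 value in each. With low counts left unfiltered, edgeR called Elane, Prtn3 and Ctsg among 32 of 14837 genes in MPP-like cells and among 26 of 15331 in LMPP-like cells, and Elane among 23 of 14759 in LTHSC-like cells. In mice 1 to 10 only, it called Elane in all 4 states, Prtn3 in MPP-like and LMPP-like cells, Ctsg in these and in LTHSC-like cells, and Mpo in MPP-like and LTHSC-like cells. Of all genes it called 3 of 10831 in monocyte-like, 67 of 8101 in MPP-like, 25 of 9645 in LMPP-like and 21 of 5040 in LTHSC-like cells. In mice 11 to 20 only, all 4 members were negative in LTHSC-like cells, as were Ctsg and Mpo in MPP-like and LMPP-like cells. Leaving out a single pool moved several of the log2 values over all pools by more than 1.5 times. Without CVT pool 4 that of Mpo turned negative in MPP-like (-0.0580) and LMPP-like cells (-0.0113). Levels were also compared by exact test for 48 pairs of a member and a named state, and the groups lay apart in 3 (smallest adjusted p = 0.366 over the 48, exact permutation tests). Among them was Elane in basophil or mast-like cells, at 2.41 to 3.86 in CVT pools and 0.833 to 1.62 in SPF pools.

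The other genes of these granules did not share a direction in KL cells. Of 10 further azurophil contents, 9 were tested, and 5 had a positive and 4 a negative log2 fold change (median 0.01 beside -0.01 over all genes), with 0 called. Lyz2, the lysozyme gene, had -0.77, Cd63 -0.15, Hexa 0.09 and Gusb 0.01. Prss57, named above for its likeness to Ctsg and Mpo and less abundant than these, had 0.44 (unadjusted p = 0.00721, adjusted p = 0.660 by edgeR), close to the members. All 8 genes of processing and packaging were tested, 5 positive and 3 negative (median 0.05), among them Srgn, the granule proteoglycan, at 0.03 and Calr, a chaperone of myeloperoxidase, at 0.16. Of 6 protease inhibitors 5 were tested, 2 positive and 3 negative (median -0.11), with Serpinb1a, an inhibitor of these proteases, at -0.11 and Slpi at 0.18. Transcription factors of the granule genes had 4 positive and 5 negative among 9 tested (median -0.01), with Myb at 0.01, Irf8 at 0.13, Spi1 at -0.04 and Cbfb at -0.12. Neighbours and relatives of the members had 2 positive and 3 negative among 5 tested (median -0.51). All 13 specific and late granule genes were negative (median -0.55), with Camp at -0.37, Ngp at -0.49, Lcn2 at -0.55 and Chil3 at -0.70. The standard errors of these named genes ran from 0.495 to 0.531. The late genes, like Lyz2, were more abundant in late granulocyte-like than in GMP-like cells. How far the share of late granulocyte-like cells in each pool set these values was not tested. None of these genes was called by edgeR (the counts for all genes are given above), and the members, with 4 of 4 positive and a median of 0.42, had been chosen with such results known.

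In GMP-like cells the same lists sat close to 0. Medians were 0.10 for other azurophil contents (8 tested, 5 positive), -0.02 for processing and packaging (8 tested, 3 positive) and 0.05 for protease inhibitors (4 tested, 3 positive), beside 0.00 over all genes. They were 0.03 for transcription factors (9 tested, 5 positive), 0.13 for neighbours and relatives (2 tested, 1 positive) and 0.12 for specific and late granule genes (11 tested, 8 positive), with 0 called in each list by edgeR, while the members had 0.05. Among packaging genes, Srgn stood at 22.1 in the neutrophil progenitor cluster, and at 8.37 in that with monocyte markers and 10.5 in that with basophil and mast cell markers.

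The values describe 8 pools of sorted bone marrow cells at 1 time after co-housing. Housing cannot be told apart from other differences between the facilities. Levels of Elane, Prtn3, Ctsg and Mpo are RNA counts and say nothing of the proteins in the granules. States rest on marker genes and on clusters of the same counts, and doublets of a granulocyte progenitor with another cell cannot be told apart from free RNA. The assignment of pools by cell names was taken from matching numbers, and every difference between CVT and SPF pools depends on it.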

How the data were processed

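The authors aligned the reads, assigned cells and counted UMIs with Cell Ranger (version not given, build listed as mm9), and they deposited raw UMI counts per gene and cell without normalization. All 29891 cells (502 to 5497 genes, 2759 to 49732 UMIs) were used. Cells were scaled to 10000 UMIs and log-transformed, and 1000 variable genes were chosen without the 14 azurophil granule genes. They gave 30 principal components, a graph of 30 neighbours and Leiden clusters at resolution 2 (Python 3.11.15). A cluster was named for the class with the most markers among its 100 leading genes, if these were at least 3, and a tie was settled by the markers among the 10 leading genes. It stayed unnamed (6798 cells in all) also when classes tied in both or when another class had more among the 10, as in clusters of 1410, 1384 and 407 cells. Scrublet marked 0.308% of cells as doublets, too few to count as having worked, so doublets were not removed.

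Counts were summed per pool, which was the replicate, since by the labels pools hold separate mice. CVT was compared with SPF by edgeR 4.0.16 (glmQLFit, glmQLFTest, TMM, filterByExpr, Benjamini-Hochberg over all genes tested) in R 4.3.3, with DESeq2 1.42.0 as an alternative. The test was tested on simulated data with 200 changed genes, most of which it recovered. Those genes had 1 dispersion in common and were changed by a larger fold than the members showed in KL cells. Recovery of smaller changes was not tested. Single values were compared by exact permutation over 70 regroupings. Symbols were matched to identifiers by a reference table, and promoters were taken from RefSeq (GRCm38.p6).

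Named genes are the 4 members, up to 4 most abundant genes of each list (other azurophil contents, processing and packaging, protease inhibitors, transcription factors, neighbours and relatives, specific and late granule genes), counted in full, and the 5 genes most like each member over clusters among those with at least 50 CPM in a cluster. Members and lists were chosen with earlier results of these data known. Cebpd has no entry in the count table. Neighbours in the genome and markers of clusters are named besides, after their values were seen.

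Alternatives were DESeq2, size factors by RLE, low counts left unfiltered, mouse numbers as a block, each pool left out, a limit of 1000 genes or more and of 10% mitochondrial UMIs or less per cell (29300 cells), resolution 1, granule genes allowed in the clustering, thinned cells, means over cells and a gene gate. Added after seeing the data were cells without shared barcodes, cells without doublets, mice 1 to 10 or 11 to 20 only, the interaction of housing with mouse numbers, clusters of at least 40 cells, and the share of GMP-like cells and the log2 fold changes in monocyte-, MPP-, LMPP- and LTHSC-like cells under these settings.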

Additional observations from a re-analysis of the deposited data

Results flagged for a closer look

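Levels of the 4 genes were screened for a pool far from the other pools of its group, in 80 groups of 4 pools, by the gap to the nearest pool divided by the range (Dixon's critical value for 4). Chance gives about 1 such group in 20, and 3 were found. Ctsg in GMP-like cells was highest in CVT pool 3 (43.8 against 42.1 to 42.3, ratio 0.865), a gap that is small beside its level. Elane in monocyte-like cells was highest in SPF pool 8 (19.6 against 13.8 to 14.8, ratio 0.830). Ctsg in basophil or mast-like cells was highest in CVT pool 4 (9.88 against 5.69 to 6.40, ratio 0.830).

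The effect of housing was compared between mice 11 to 20 and mice 1 to 10 for each gene in all KL cells and in 6 states by an interaction term in edgeR, chosen after seeing the data, and 4 of 28 differences passed an adjusted p of 0.05. Of all genes, this term passed for 12 of 8537 in MPP-like cells and for 11 of 6832 in LTHSC-like cells. In MPP-like cells Ctsg differed by -0.93 on the log2 scale (adjusted p = 0.00455 by edgeR) and Mpo by -0.76 (adjusted p = 0.00540). The log2 fold change of Ctsg was 0.84 in mice 1 to 10 and -0.08 in mice 11 to 20, and that of Mpo 0.52 and -0.23. In LTHSC-like cells Elane differed by -1.53 (adjusted p = 0.0150 by edgeR) and Ctsg by -1.77 (adjusted p = 0.0285). Both genes lie near the erythroid-like level in LTHSC-like cells, and in erythroid-like cells the same term was -1.28 for Elane and -1.23 for Ctsg without passing (adjusted p = 0.635 by edgeR). The part of free RNA in these differences was not tested.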

How the results depend on the processing

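Of 789 alternatives for 52 results, 695 gave the same direction and the same side of the threshold, 27 reversed a direction, 26 passed where the first analysis did not, 4 lost an exact p below 0.05 without adjustment (the share of GMP-like cells, whose adjusted p had not passed), and 37 moved a count by more than 1.5 times or a percent beyond its SD over pools. The cause was not tested for any of them.

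With mouse numbers as a block, edgeR called 4 genes in KL cells and 6 in GMP-like cells instead of 0, and no member was among the results that this block moved or reversed. DESeq2 called 15 genes in KL cells and 1 in erythroid-like cells. With low counts left unfiltered, 36 genes were called in GMP-like cells and 1 in erythroid-like cells. In mice 1 to 10 only, 146 genes were called in KL cells, 19 in GMP-like cells and 143 in erythroid-like cells, and in mice 11 to 20 only, 20 in GMP-like cells. With a pool left out, 0 genes were called in KL and erythroid-like cells, and 0 to 1 in GMP-like cells, with the 1 found without CVT pool 6. In monocyte-, MPP-, LMPP- and LTHSC-like cells, with 0 called at first, 2, 32, 26 and 23 genes were called with low counts left unfiltered, 3, 67, 25 and 21 in mice 1 to 10 only, 0, 2, 2 and 2 in mice 11 to 20 only, 2, 2, 1 and 1 with mouse numbers as a block, and up to 1, 9, 4 and 2 with a pool left out.

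In mice 1 to 10 only, the log2 fold change in KL cells passed at 0.81 for Elane, 0.60 for Prtn3, 0.73 for Ctsg and 0.71 for Mpo. In erythroid-like cells it passed at 1.19 for Elane, 0.83 for Prtn3, 1.03 for Ctsg and 1.10 for Mpo. It also passed for Elane in monocyte-like cells (0.76), for Elane, Prtn3, Ctsg and Mpo in MPP-like cells (1.06, 0.49, 0.84 and 0.52), for Elane, Prtn3 and Ctsg in LMPP-like cells (1.499, 0.50 and 0.64) and for Elane, Ctsg and Mpo in LTHSC-like cells (1.45, 1.48 and 1.24). In mice 11 to 20 only, it was -0.0466 for Elane, -0.19 for Prtn3 and -0.16 for Ctsg in erythroid-like cells. The same pools gave -0.00861 for Ctsg and -0.11 for Mpo in GMP-like cells, and -0.0761 for Ctsg and -0.23 for Mpo in MPP-like cells. They gave -0.000405 for Ctsg and -0.12 for Mpo in LMPP-like cells. In LTHSC-like cells they gave -0.0752 for Elane, -0.0366 for Prtn3, -0.30 for Ctsg and -0.17 for Mpo.

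Clusters at resolution 1 gave -0.14 for Elane, -0.0549 for Prtn3 and -0.000541 for Mpo in GMP-like cells. These were there a cluster of 1009 cells, whose second markers were those of neutrophil progenitors. A cluster of 2962 cells with 7 GMP markers stayed unnamed at that resolution. Clusters made with granule genes allowed gave -0.00382 for Mpo in MPP-like cells.

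With each pool left out, the log2 fold change in KL cells ranged from 0.42 to 0.59 for Elane, from 0.31 to 0.46 for Prtn3, from 0.33 to 0.53 for Ctsg and from 0.25 to 0.52 for Mpo. In GMP-like cells that of Mpo ranged from -0.0332 to 0.0693, negative without CVT pool 3 (-0.0264) and without CVT pool 4 (-0.0332). In erythroid-like cells it ranged from 0.44 to 1.02 for Elane, from 0.15 to 0.63 for Prtn3, from 0.33 to 0.79 for Ctsg and from 0.50 to 0.88 for Mpo. In LTHSC-like cells it ranged from 0.34 to 0.95 for Elane, from 0.0752 to 0.23 for Prtn3, from 0.15 to 1.12 for Ctsg and from 0.15 to 1.01 for Mpo. In MPP-like cells it ranged from 0.43 to 0.93 for Elane, from 0.16 to 0.37 for Prtn3 and from 0.14 to 0.51 for Ctsg, and in LMPP-like cells from 0.67 to 1.34, from 0.19 to 0.41 and from 0.10 to 0.47 for the same genes. In MPP-like cells that of Mpo ranged from -0.0580 (without CVT pool 4) to 0.33, and in LMPP-like cells from -0.0113 (without CVT pool 4) to 0.34. The erythroid-like percent of Prtn3, CVT minus SPF, ranged from -0.426 to 0.929, negative without SPF pool 1 (-0.426), CVT pool 3 (-0.182) or SPF pool 7 (-0.0775). That of Ctsg ranged from -0.0105 (without CVT pool 3) to 1.11. At equal state shares the difference of Mpo ranged from -0.300 (without CVT pool 4) to 1.04, and was -0.0660 without CVT pool 3. The share of GMP-like cells differed by 3.801 to 5.88 points, and without SPF pool 1, 2, 7 or 8 it was 4.88, 4.80, 4.47 and 5.06 at an exact p of 0.0571.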
